A study of Mus musculus with 4 samples.

Results

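Gene expression in mouse fetal pancreatic epithelium was compared between E13.5 and E15.5 (E, embryonic day), with 1 sample at each stage out of the 4 samples of the series. The genes compared were the 12699 of 54532 Ensembl gene IDs that reached 1 FPKM (fragments per kilobase of transcript, set to the size of each library) at either stage, of which 11038 reached it at both, 723 only at E13.5 and 938 only at E15.5. Both samples were total RNA of cells from the fetal pancreas of wild-type C57BL/6 mice, with no treatment named. The series calls the cells epithelial, and how they were isolated, and whether embryos were pooled, no source used here says. The other samples of the series, E11.5 and E18.5, are quoted beside some values for context only.

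Each sample was deposited as a mean. The values of each mean could be resolved into whole reads of 2 libraries, with about 1.68e+07 and 1.47e+07 reads per library at E13.5 and E15.5. All levels are scaled FPKM, and the SD after ± is that between recovered libraries (n = 2). A level without one belongs to a gene whose mean could not be resolved, either because many pairs of whole reads gave it or because none did. No source says that the libraries are separate embryos, so their SD and every limma p-value reflect no more than the variation between such libraries, which may be technical. With 1 deposited mean per stage a rule of size took the place of a test: a gene was called higher or lower at E15.5 when the stages were at least 2-fold apart on the log2(scaled FPKM + 1) scale and the higher value was 5 FPKM or more. That scale understates the change of low genes. The words rose and fell are kept for genes that limma, fitted to the 4 recovered libraries over 11279 genes with Benjamini-Hochberg adjustment, called at 0.05. Lists and named genes were chosen with values of these data known. The p-values printed for single genes therefore describe the gap and add no support to it.

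Between these days the pancreas passes through what is called the secondary transition. The branching epithelium separates into tips, which make acinar cells, and a trunk, which makes duct and endocrine cells. Acinar cells synthesise digestive enzymes as inactive zymogens and store them in granules. Their gene programme is driven by a complex of the basic helix-loop-helix factor Ptf1a, a class I E protein and Rbpj or Rbpjl. Trunk cells that switch on Neurog3 leave the epithelium and become hormone-producing islet cells.

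The epithelial label was checked against marker genes. The E-cadherin gene Cdh1 was at 66.9 ± 2.21 and 84.1 ± 2.42 at E13.5 and E15.5, the adhesion gene Epcam at 794 and 699.8, and the keratin genes Krt8 and Krt18 at 834 and 909.8 and at 545 and 1313. Defining genes of endothelium and leukocytes were near 0 at both stages, with Pecam1 at 0.0136 and 0.0191, Cdh5 at 0.00728 and 0.00942 and Ptprc at 0.00148 and 0.0108. The mesothelial gene Upk3b was at 0.168 and 0.231 and the mesenchymal receptor gene Pdgfra at 0.0566 and 0.0772. Of 27 mesenchyme names 15 were measured, with summed levels of 474 and 264, of which Dlk1 made up 357 and 197. Over the measured mesenchyme members the median log2 difference was 0.76, and limma could test 12 of them, of which 8 rose and 2 fell. Of 18 leukocyte names 7 were measured, summing to 26.8 and 208, of which the complement gene C1qa made up 13.7 ± 1.38 and 179.9 ± 1.34. For 20 endothelial names, of which 2 were measured, the sums were 16.9 and 21.8. The 16 names of neural crest, glia and neurons, 7 of them measured, summed to 30.8 and 23.0, and the 13 gut and stomach names, 4 of them measured, to 27.5 and 15.7. Larger were the sums of 26 liver-type plasma protein names, at 4578 and 6029, with 1 of 18 measured members higher and 5 lower. The 17 erythroid names, 10 of them measured, summed to 276 and 303. Transcripts of the X-inactivation gene Xist were at 4.07 ± 0.0162 and 12.6 ± 0.346, while the Y-linked Eif2s3y and Ddx3y were at 9.75 ± 0.256 and 3.56 ± 0.563 and at 4.78 ± 0.136 and 2.03 ± 0.217. The rRNA-related transcripts Gm23935 and mt-Rnr2, the mitochondrial large ribosomal RNA, were at 1556 ± 126 and 9584 and at 470.5 and 2353. The part of sex, ribosomal RNA and other cells in the differences below was not tested.

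In all, 522 genes were higher at E15.5, 4.11% of those measured, and 235 were lower, 1.85%, so that 5.96% were called in either direction. At least 4-fold apart were 126 higher and 26 lower genes, and at least 8-fold apart 52 and 3. The genes called higher held a summed level of 28924 and 199033 at the earlier and later stage, and those called lower 16425 and 5995. The transcriptome became concentrated, with the 10 most abundant genes holding 7.50% of all FPKM at E13.5 against 25.9% at E15.5, and 50% of all FPKM held by 431 and 152 genes. The rank order changed with it. The osteopontin gene Spp1, a secreted product of the trunk and duct epithelium, was the most abundant at E13.5 at 4567, ahead of the ferritin gene Ftl1 at 3966, the mitochondrial mt-Cytb, the ubiquitin gene Ubb and the glucagon gene Gcg. At E15.5 the lipase-related Pnliprp1 came first at 48583, followed by Ctrb1, Clps and, further down, the carboxypeptidase gene Cpa1 at 8098. Of the 398 higher genes that limma could test 391 rose, and of 198 lower genes 196 fell. Both groups were picked by size from the same values, so that agreement was all but fixed in advance and is no separate support. Limma called 29.9% of all tested genes as risen and 28.7% as fallen, 58.6% in all, at any fold. The limma counts of every list below are to be read beside these shares.

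The balance of calls depended on the scaling. Samples were scaled by the median of ratios, which left the median log2 difference of all measured genes at 0.011, and the deposited values as they stood had it at 0.025. With both stages set to the same total FPKM that median was -0.49. Of the 12699 measured genes 196 were then higher and 1429 lower, so that 12.1% of calls were upward in place of 69.0%. List counts given below for that scaling are to be read beside these. With the same total after taking out the digestive enzymes the median was -0.19, with 338 higher and 471 lower. The median of 10 and 7 of 43 gene lists changed sign under these 2 scalings. Relative to the median of all genes 42 of 43 kept their direction under each, the exception being the aminoacyl-tRNA synthetases. A scaling shifts nearly all genes alike, so that agreement was all but fixed in advance and says nothing about which scaling is right.

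**Figure D1:**
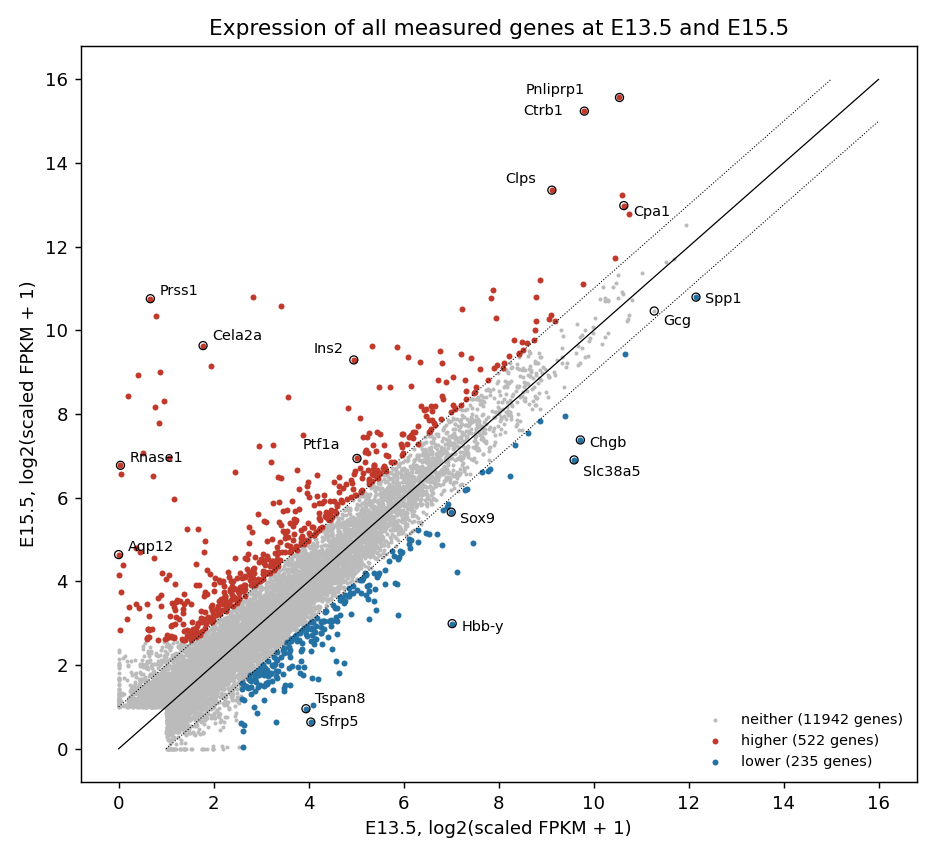
Scaled FPKM of the 12699 measured genes at E13.5 (x axis) and E15.5 (y axis), both as log2(scaled FPKM + 1), 1 point per gene. Red and blue points are the 522 higher and 235 lower genes, dotted lines mark a 2-fold difference, and the digestive enzyme genes Prss1, Cela2a, Ctrb1 and Pnliprp1, labelled in the plot, lie well above the diagonal.

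The digestive enzymes of acinar cells accounted for the largest differences. On that list 25 of 30 measured members were higher and 0 lower, the median log2 difference being 4.92, beside a median of 0.011 over all measured genes. Limma could test 10 of them, of which 9 rose and 0 fell. Together they took 1.91% of all FPKM at E13.5 and 23.7% at E15.5, against 0.00298% at E11.5 and 17.3% at E18.5. Their levels at E13.5 spanned a wide range, and some were already abundant. The chymotrypsinogen gene Ctrb1 (ENSMUSG00000031957, chromosome 8, 111686519 to 111691010, mm10) was at 894 and 38752, Pnliprp1 (ENSMUSG00000042179, chromosome 19, 58728887 to 58744169) at 1494 and 48583, and Clps, which encodes the colipase cofactor, at 556 and 10461. Cpa1, which encodes a carboxypeptidase of tip and acinar cells, was at 1592 and 8098, and the bile-salt lipase gene Cel at 149 and 1463.

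Others were below 3 FPKM at E13.5 and far higher at E15.5. The trypsinogen genes Prss1 and Try10 were at 0.589 ± 0.403 and 1731 and at 0.714 ± 0.299 and 1291, and Prss3 rose from 0.318 ± 0.0772 to 489 ± 33.2. Among the elastases Cela2a was at 2.43 ± 0.283 and 795 and Cela3b at 2.86 ± 0.0918 and 568, and the procarboxypeptidase gene Cpb1 at 0.797 ± 0.178 and 219. The pancreatic ribonuclease gene Rnase1 (ENSMUSG00000035896, chromosome 14, 51144998 to 51146785) was at 0.0545 and 0 in the E13.5 libraries and 116 and 101 in the E15.5 libraries (limma log2 difference 6.73, adjusted p = 4.9e-05). The kallikrein gene Klk1 rose from 0.296 ± 0.0636 to 26.7 ± 1.36. Amylase genes moved with them, with Amy2a1 at 0.834 ± 0.110 and 516 and Amy2a5 at 0.429 ± 0.222 and 134. Trypsinogens and amylases have near-identical copies, and the levels of single members are uncertain: the share of 50-base windows found in another gene was 54.9% for Prss1, 66.1% for Prss3, 40.8% for Try10, 94.9% for Amy2a1 and 53.5% for Amy2a5, while it was 0% for Ctrb1, Pnliprp1, Clps, Cpb1 and Rnase1. Gapdh, a glycolysis gene that every cell uses and that has many processed copies, was listed at only 12.8 ± 4.48 and 2.87 ± 0.115 and counted among the lower genes, and how the authors counted reads that fit several places is not stated in the sources.

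The 5 enzyme genes that the rule did not call stayed low. Pnlip, which encodes the classical pancreatic lipase, was at 0.653 and 2.07, and the chymotrypsin C gene Ctrc and the elastase gene Cela3a were at 0.541 ± 0.0380 and 3.86 ± 1.29 and at 0 and 3.01 ± 0.870, below the 5 FPKM minimum although limma called a rise for both. Ctrl was at 0.493 ± 0.0975 and 3.08 ± 0.103 and the phospholipase gene Pla2g1b at 0.814 ± 0.185 and 1.45 ± 0.484. At E18.5 Rnase1 was at 3395 and Cela2a at 6037, above E15.5, whereas Ctrb1 was at 12047 and Pnliprp1 at 28049, below it.

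Promoter windows of the enzyme genes were read from RefSeq to describe letters that some of them share. The build was GRCm38.p6, the same as mm10, and a window ran from 250 bases before to 50 after the start of transcription. A window matched 25 of the 30 genes. The Ptf1a complex is known to bind an E-box next to a TC box, so the E-box CACCTG was searched on both strands, as was the TC box TTTCCC, and the TATA box TATAAA on the gene's strand from 40 to 20 bases before the start. CACCTG was present in 14 of 25 enzyme promoters (56%), against 17.9% of 8948 measured genes with a window and 28.1% of the 324 genes called higher. TATAAA in that interval was present in 28% against 1.35% of measured genes, 4.94% of those called higher and 4.97% of those called lower. An E-box and a TC box within 40 bases of each other were found in 4 enzyme promoters (16%), those of Prss1, Cel, Cela1 and Cela3a. The share was 1.21% of measured genes and 3.70% of those called higher. The 4 enzyme promoters are listed without a test. Of these 4 genes the 3 that exceeded 1000 FPKM at E15.5 are shown as the 140 bases upstream of the start, on the gene's strand. The 3 motifs or, for the E-box and TC box, their reverse complements are in capitals. The genes shown are Prss1 (chr6:41458790-41458929, plus strand), Cel (chr2:28563404-28563543, minus strand) and Cela1 (chr15:100687921-100688060, minus strand).
Prss1: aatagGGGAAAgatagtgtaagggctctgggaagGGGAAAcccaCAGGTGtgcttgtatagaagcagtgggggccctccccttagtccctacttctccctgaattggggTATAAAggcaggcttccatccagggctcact
Cel: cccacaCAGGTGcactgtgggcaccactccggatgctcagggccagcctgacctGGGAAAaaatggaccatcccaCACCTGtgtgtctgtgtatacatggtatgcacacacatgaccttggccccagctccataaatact
Cela1: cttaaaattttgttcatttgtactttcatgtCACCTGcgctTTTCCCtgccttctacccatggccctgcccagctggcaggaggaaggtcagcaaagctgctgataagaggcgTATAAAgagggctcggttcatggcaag
In Prss1 and Cela1 the E-box lies 4 bases from a TC box and TATAAA follows, and in Cel the bases between an E-box and a TC box number 15 and the interval searched holds no TATAAA. Beside these windows, Prss1 was at 0.589 ± 0.403 and 1731, while Cel was at 149 and 1463 and Cela1 at 229.9 and 1759. A match is a description of the letters and does not show binding.

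Transcription factors of acinar cells were higher as a group: 7 of 12 measured members were higher and 0 lower, the median log2 difference being 1.28. Limma could test 10 of them, of which 8 rose and 1 fell. Ptf1a (ENSMUSG00000026735, chromosome 2, 19445663 to 19447501) was at 30.6 and 32.3 in the E13.5 libraries and 122 and 122 in the E15.5 libraries (log2 difference 1.92, SE 0.0465, limma adjusted p = 0.000144). Of its windows 35.4% were shared with another gene. Rbpjl, the acinar-specific partner of Ptf1a, was at 34.3 ± 0.309 and 174. Bhlha15 (ENSMUSG00000052271, chromosome 5, 144190286 to 144194441), also called Mist1, which organises the mature secretory apparatus of acinar cells, was at 6.999 and 7.75 in the E13.5 libraries and 43.5 and 41.8 in the E15.5 libraries (log2 difference 2.38, SE 0.0619, limma adjusted p = 0.000151). Spdef, an ETS factor of secretory epithelia, rose from 5.66 ± 0.122 to 29.3 ± 0.0175, the zinc-finger gene Gfi1 from 1.56 ± 0.00404 to 6.87 ± 0.302, and the nuclear receptor gene Nr5a2 from 5.27 ± 0.497 to 12.99 ± 0.00560. Creb3l1, a factor released from the endoplasmic reticulum membrane, rose from 3.76 ± 0.0783 to 11.6 ± 0.000685. Xbp1, the transcription factor of the unfolded protein response, was at 175 and 325 and was not called. Gata4 rose less than 2-fold, from 14.4 ± 0.372 to 24.6 ± 0.393, and Mnx1, the 1 member that fell, was at 10.4 ± 0.779 and 5.52 ± 0.614. At E18.5 Ptf1a, Rbpjl and Bhlha15 were at 22.4, 36.03 and 11.6, and Creb3l1 at 14.9.

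**Figure D2:**
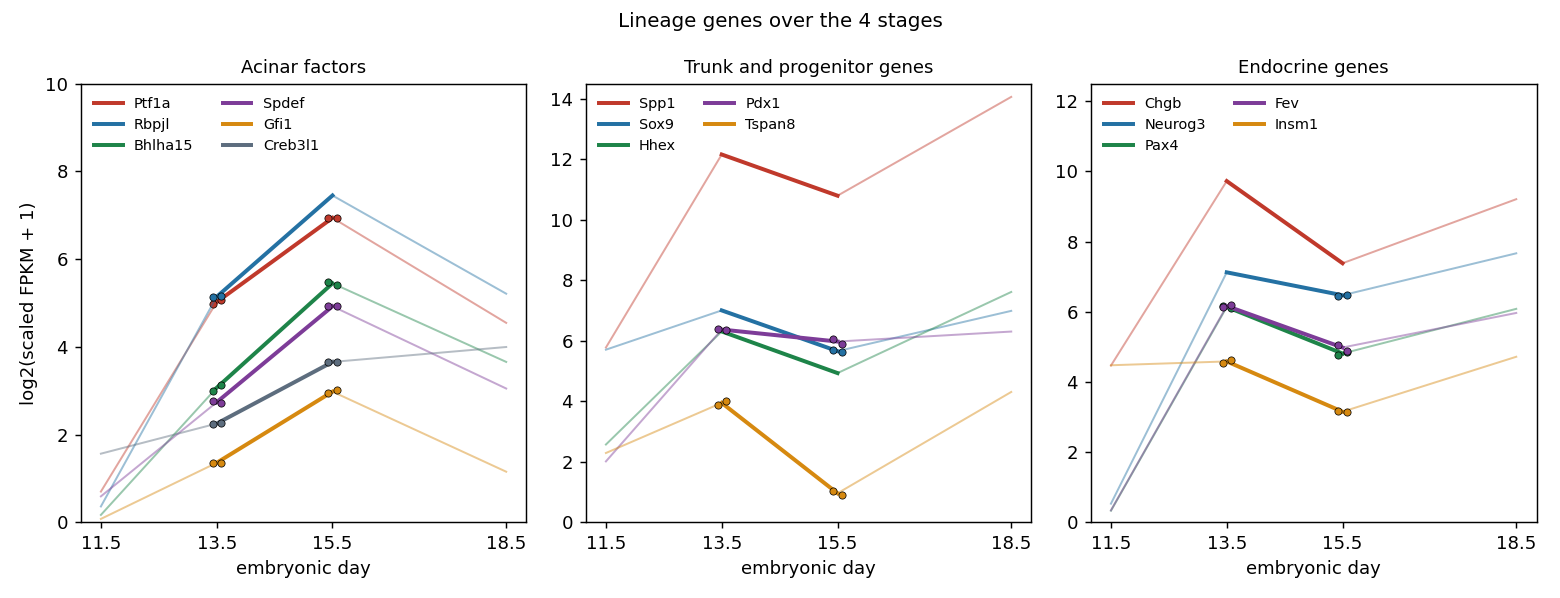
Levels of acinar factors (left), trunk and progenitor genes (middle) and endocrine genes (right) as log2(scaled FPKM + 1) against embryonic day, with the step from E13.5 to E15.5 drawn thick and points for the recovered libraries (2 per stage, where the mean could be resolved). The genes were picked for display. The 6 acinar factors drawn are all higher at E15.5 than at E13.5, and the 10 trunk, progenitor and endocrine genes drawn are all lower. Other members of the lists went the other way by limma, with 1 acinar factor that fell. On the trunk and duct, multipotent progenitor and endocrine progenitor lists 3 members each rose.

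Proteins of the zymogen granule and the acinar surface followed: 14 of 21 measured members were higher and 0 lower, the median log2 difference being 2.07. Limma could test 13 of them, of which 12 rose and 0 fell. Aqp8, a water channel gene, rose from 0.659 ± 0.109 to 91.5 ± 4.58. Another water channel gene, Aqp12, had no reads at E13.5 and stood at 24.0 ± 0.00376 at E15.5. With a floor of 3 reads summed over the libraries of a stage, that is at least 301-fold higher. Sycn, which encodes the granule protein syncollin, rose from 4.47 ± 1.65 to 96.6 ± 5.20. The trypsin inhibitor gene Spink1 was at 27.2 and 281, the serpin gene Serpini2 at 80.3 ± 2.64 and 603, and the stress-response gene Nupr1 at 56.7 ± 1.31 and 779. Reg1, of the Reg family of secreted lectins, rose from 70.2 ± 5.82 to 407 ± 24.7. Erp27 and Tmed6, which act in the endoplasmic reticulum and early secretory pathway, were at 6.75 ± 0.133 and 151 and at 108 ± 7.29 and 723. The granule membrane gene Gp2 and the fusion gene Vamp8 were among 7 members not called, at 0.486 ± 0.384 and 1.30 ± 0.0416 and at 50.5 ± 4.03 and 73.8 ± 1.52. Of the 9 measured tip genes 6 were higher and 1 lower, the higher ones being Cpa1, Ptf1a, Rbpjl, Nr5a2 and Bhlha15 and, at 51.3 and 399.7, Reep5, a gene of endoplasmic reticulum tubules. The lower one was the complement inhibitor gene Serping1, which fell from 15.7 ± 0.0964 to 5.58 ± 0.209.

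Genes of protein folding in the endoplasmic reticulum, where zymogens are made, were higher in part: 14 of 35 measured members were higher and 0 lower, the median log2 difference being 0.83, or 7 higher with both stages at the same total FPKM. Limma could test 15 of them, of which 12 rose and 0 fell. Edem1 and Edem2, which sort misfolded glycoproteins for degradation, were at 11.6 ± 0.124 and 60.1 ± 1.04 and at 33.1 ± 2.01 and 239. The degradation gene Herpud1 was at 37.1 ± 0.622 and 133, and Sel1l, an adaptor of the same degradation complex, at 10.9 ± 0.402 and 32.5 ± 0.852. The prolyl isomerase gene Fkbp11 was at 9.69 and 87.2 ± 1.77, the co-chaperone gene Sdf2l1 at 146 ± 4.73 and 688, and the oxidoreductase gene Ero1lb rose from 5.49 ± 0.150 to 22.2 ± 1.12. Several abundant chaperones did not pass. Hspa5, the central chaperone BiP, was at 645 and 599.9, the lectin chaperone gene Calr at 447 and 592, and the disulfide isomerase genes Pdia6 and Pdia3 at 436 and 595 and at 575 and 513.

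The endoplasmic reticulum stress element, CCAAT followed after 9 bases by the letters CCACG, is a known binding arrangement for the stress-response factors, and the 28 folding genes with a promoter window were set by it. Only exact matches within the window were searched, so a gene counted without the element may hold a variant or a more distant copy. Of the 28 genes 9 held it on either strand (32.1%), against 17 of 8948 measured genes (0.19%). The 9 with the element had a median log2 difference of 0.45, from -0.11 for Hspa5 to 1.76 for Derl3, and 3 of them were called higher, Derl3, Dnajc3 and Creld2. The 19 with no exact match had a median of 1.2, from -0.20 to 3.04, and 9 were called higher. No test was made of that difference. Windows of 2 called and 2 uncalled members are shown up to the start of transcription, on the gene's strand, with the element in capitals. They are Derl3 (chr10:75893228-75893397, plus strand), Dnajc3 (chr14:118937812-118937931, plus strand), Canx (chr11:50325674-50325833, minus strand) and Hspa5 (chr2:34771970-34772089, plus strand).
Derl3: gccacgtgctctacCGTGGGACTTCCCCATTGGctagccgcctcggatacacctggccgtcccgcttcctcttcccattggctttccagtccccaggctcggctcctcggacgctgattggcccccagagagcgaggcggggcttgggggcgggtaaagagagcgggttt
Dnajc3: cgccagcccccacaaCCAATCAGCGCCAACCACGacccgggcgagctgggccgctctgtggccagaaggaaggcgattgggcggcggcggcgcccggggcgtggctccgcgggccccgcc
Canx: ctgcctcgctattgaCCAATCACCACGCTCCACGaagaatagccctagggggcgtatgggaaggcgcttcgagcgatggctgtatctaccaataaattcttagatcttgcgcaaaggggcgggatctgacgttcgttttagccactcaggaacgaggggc
Hspa5: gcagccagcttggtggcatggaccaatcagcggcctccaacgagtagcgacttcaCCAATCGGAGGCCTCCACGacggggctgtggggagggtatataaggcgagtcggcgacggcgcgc
The element is reversed in Derl3 and forward in the other windows. Derl3, a degradation gene of secretory cells, rose from 3.01 ± 0.222 to 12.6 ± 0.858, and the co-chaperone gene Dnajc3 was at 40.02 ± 0.344 and 102. The lectin chaperone gene Canx was at 64.9 ± 0.102 and 82.1 ± 2.29, a rise of less than 2-fold by limma, and Hspa5 at 645 and 599.9.

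**Figure D3:**
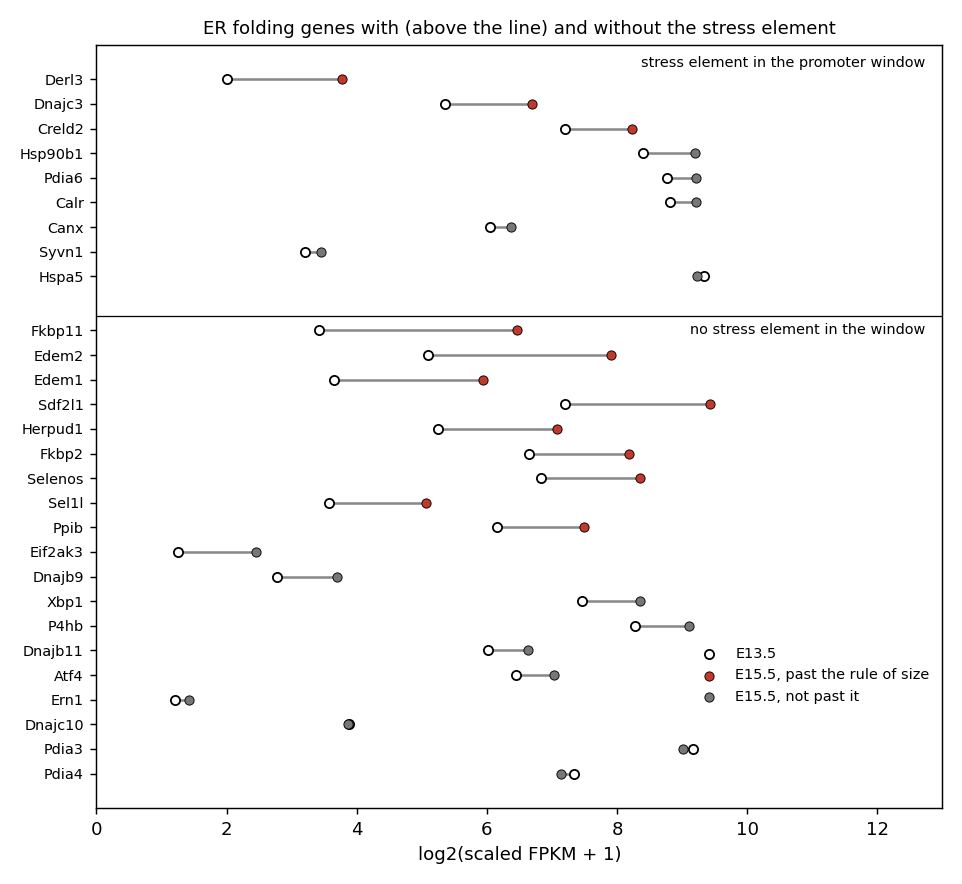
Levels of the 28 endoplasmic reticulum folding genes with a promoter window, as log2(scaled FPKM + 1), at E13.5 (open circles) and E15.5 (filled circles, red where the rule of size was passed). The 9 genes above the line hold an exact match to the stress element in the window, and in the 19 below it none was found. The widest gaps are those of Fkbp11, Edem2, Edem1 and Sdf2l1, which are among the 19.

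The machinery that moves proteins into and out of the endoplasmic reticulum showed smaller differences in one direction: 14 of 49 measured members were higher and 0 lower, the median log2 difference being 0.53. Limma could test 27 of them, of which 23 rose and 0 fell. The retrieval receptor gene Kdelr3 rose from 3.97 ± 0.404 to 17.8 ± 0.357, the translocon gene Sec61b from 88.4 ± 11.97 to 248 ± 4.13 and the signal sequence receptor gene Ssr4 from 37.5 ± 2.97 to 86.0 ± 3.20. The cargo receptor gene Tmed3 was at 85.2 ± 0.451 and 271 and the signal peptidase gene Sec11c at 10.7 and 35.7. With both stages at the same total FPKM 3 members were higher in place of 14 and the list's median was -0.08. Amino acid supply was higher in 7 of 25 measured members and lower in 1, with a median of 0.45, which was -0.01 with both stages at the same total FPKM. Gatm and Gamt, which make creatine in sequence, were at 2.46 ± 0.160 and 25.2 ± 0.0726 and at 131 and 476, the asparagine synthetase gene Asns at 94.5 ± 4.74 and 292 and the glutamine transporter gene Slc38a3 at 9.67 ± 0.433 and 39.9 ± 0.293. The lower one, the glutamine transporter gene Slc38a5, was at 769.8 and 119. None of 21 aminoacyl-tRNA synthetases passed, beside 5.96% of all measured genes, and their median was 0.02, or -0.53 at the same total FPKM. Of 16 that limma could test 5 rose and 3 fell, beside 29.9% and 28.7% of all tested genes.

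**Figure D4:**
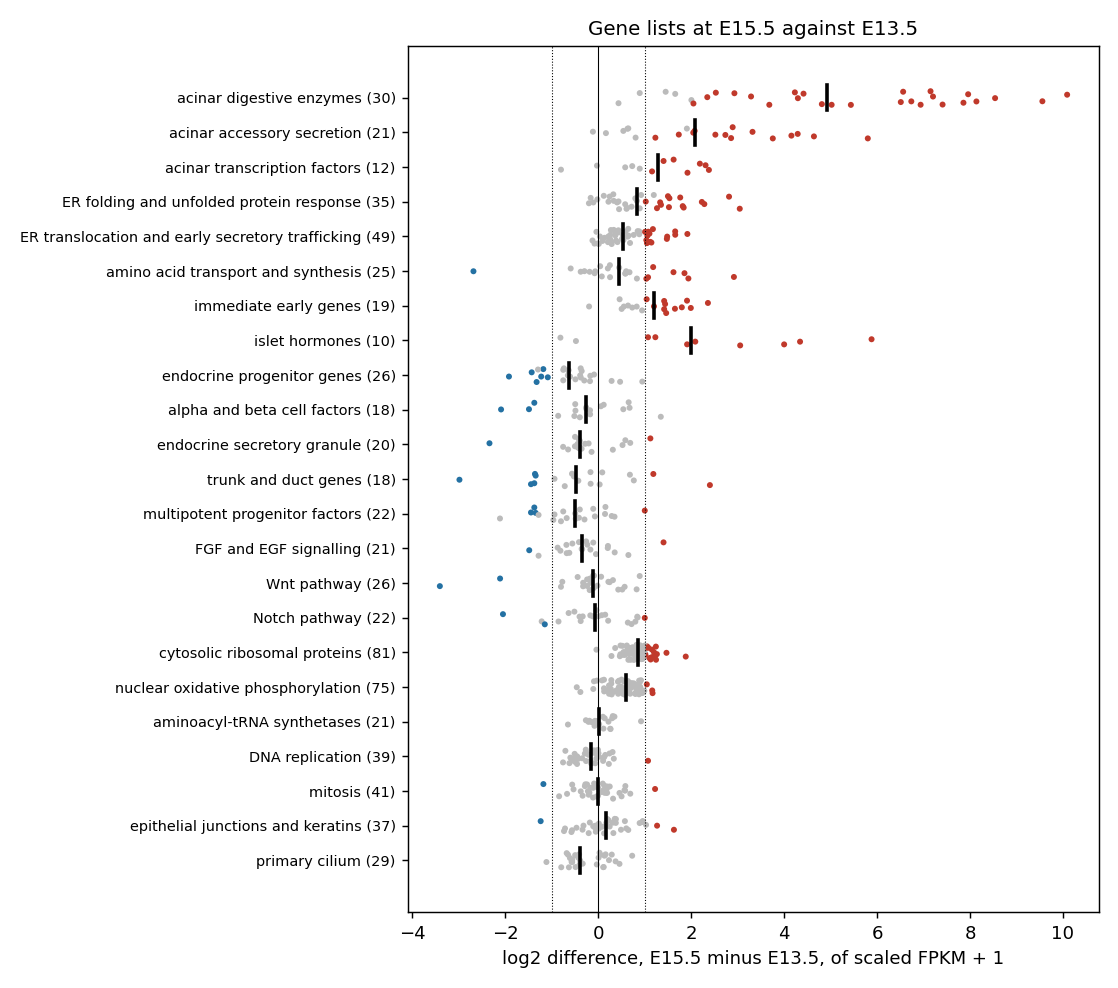
Log2 differences of scaled FPKM + 1 (E15.5 minus E13.5, x axis) for the measured members of 23 gene lists, 1 point per gene and a black bar at the list's median, with member numbers in brackets. Red and blue points passed the rule of size, dotted lines mark 2-fold, and the medians run from -0.62 for endocrine progenitor genes to 4.92 for acinar digestive enzymes.

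Trunk and progenitor genes were on the other side of 0 for the most part. In a bulk sample fewer cells of a type and less RNA per cell cannot be told apart, for these genes and for those above. Of the trunk and duct list 2 of 18 measured members were higher and 5 lower, the median log2 difference being -0.48. Limma could test 13 of them, of which 3 rose and 6 fell, beside 29.9% and 28.7% of all tested genes. Sox9 (ENSMUSG00000000567, chromosome 11, 112782224 to 112787760), needed to keep progenitors and ducts, was at 127 and 49.4 ± 1.56, and Spp1 at 4567 and 1776. The homeobox gene Hhex was at 78.2 and 29.5, and the tetraspanin gene Tspan8 fell from 14.4 ± 0.804 to 0.942 ± 0.116. The members that were higher were Clu, which encodes the secreted chaperone clusterin, at 111 and 593, and Muc1, a mucin of the apical surface, which rose from 41.7 ± 0.898 to 96.0 ± 0.438. At E18.5 Sox9, Hhex and Tspan8 were at 126, 195 and 18.8, all above E15.5. Among multipotent progenitor factors 3 of 22 were lower and 1 was higher, with a median of -0.49; limma could test 16 of them, of which 3 rose and 12 fell. At the same total FPKM 9 of these were lower and 0 higher. Pdx1 and Nkx6-1, which specify pancreatic epithelium and later beta cells, fell less than 2-fold, from 81.7 ± 1.48 to 61.8 ± 4.32 and from 54.7 ± 0.113 to 38.5 ± 1.27.

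Genes of endocrine progenitors were lower in part: 0 of 26 measured members were higher and 6 lower, the median log2 difference being -0.62. Limma could test 22 of them, of which 3 rose and 18 fell. At the same total FPKM 14 members were lower. Pax4 (ENSMUSG00000029706, chromosome 6, 28442334 to 28449353), a homeobox gene of beta cell precursors, was at 70.2 and 68.3 in the E13.5 libraries and 26.4 and 27.7 in the E15.5 libraries (log2 difference -1.33, SE 0.0465, limma adjusted p = 0.000235). Fev and Insm1, factors downstream of Neurog3, fell from 70.6 ± 2.37 to 30.5 ± 2.73 and from 23.0 ± 0.761 to 7.88 ± 0.169. Neurog3 itself was at 138 and 87.6 ± 1.11 and was not called. The peptide gene Cck fell from 57.0 ± 2.80 to 14.3 ± 1.22, and Neurod1 from 40.02 ± 2.17 to 23.6 ± 0.920, less than 2-fold. Of alpha and beta cell factors 0 were higher and 3 of 18 lower, with a median of -0.26; limma could test 17 of them, of which 4 rose and 11 fell. At the same total FPKM 7 of these were lower. The glucose transporter gene Slc2a2 fell from 6.29 ± 0.156 to 1.59 ± 0.120.

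Hormone genes went the other way. Of the islet hormone list 8 of 10 measured members were higher and 0 lower, the median log2 difference being 2.0, and limma could test 4 of them, of which 4 rose and 0 fell. The insulin genes Ins2 and Ins1 were at 29.96 ± 5.34 and 627 and at 8.54 and 152, and the amyloid polypeptide gene Iapp at 104 ± 7.28 and 447. Sst, which encodes somatostatin, was at 1.35 and 0.849 in the E13.5 libraries and 124 and 122 in the E15.5 libraries, the widest gap among the hormones (log2 difference 5.89, SE 0.122, limma adjusted p = 0.000111). Pancreatic polypeptide (Ppy) rose from 5.29 ± 1.24 to 22.7 ± 1.78 and ghrelin (Ghrl) from 20.3 ± 1.58 to 43.7 ± 2.52. Glucagon (Gcg), the most abundant hormone at both stages, was at 2482 and 1411 and was not called. With both stages at the same total FPKM Gcg and Gip were called lower. Secretory granule genes did not follow the hormones: 1 of 20 was higher and 1 lower, the median being -0.39; limma could test 17 of them, of which 5 rose and 10 fell. The granin gene Chgb was at 844 and 166, Chga at 114 and 98.8, and Scg2 rose from 11.6 ± 0.457 to 26.4 ± 1.14.

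Single members of the signalling lists differed widely. Their counts are to be read beside all measured genes, of which 4.11% were higher and 1.85% lower. Among Wnt genes 2 of 26 measured members were lower. Sfrp5 (ENSMUSG00000018822, chromosome 19, 42197971 to 42202252), a secreted Wnt inhibitor of early foregut and pancreatic epithelium, was at 15.4 and 15.6 in the E13.5 libraries and 0.584 and 0.530 in the E15.5 libraries (log2 difference -3.41, SE 0.0578, limma adjusted p = 8.33e-05), the widest downward gap among the signalling lists. The ligand gene Wnt7b fell from 13.7 ± 1.21 to 2.40 ± 0.332. The hedgehog ligand gene Ihh fell from 5.10 ± 0.232 to 0.0300 ± 0.0424, the 1 lower member of 7. In the Notch pathway the ligand gene Dll3 fell from 10.2 ± 0.00272 to 1.72 ± 0.343 and the feedback gene Nrarp from 11.1 ± 0.968 to 4.44 ± 0.270, while the target gene Hes1 was at 77.4 ± 0.520 and 156 and lay just past the 2-fold line, with a log2 difference of 1.001. Just inside and outside that line were also Pla2g16 at 1.001, and Mat2a at -0.998 and Tial1 at 0.998. Among FGF and EGF genes 1 of 21 was higher and 1 lower, and limma could test 20 of them, of which 3 rose and 12 fell. The receptor gene Fgfr4 fell from 15.6 ± 0.0380 to 4.92 ± 0.669, and the ligand gene Hbegf was at 3.72 and 11.48. The BMP target gene Id1 rose from 92.6 ± 0.767 to 191 ± 4.68, 1 of 29 members of its list. None of 20 Hippo genes passed. At the same total FPKM 4 Wnt, 6 Notch, 5 FGF and EGF, 5 TGF-beta and BMP and 3 Hippo genes were lower, and none of them higher. Under that scaling 1429 of all 12699 measured genes were lower.

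Immediate early genes were higher: 11 of 19 measured members were higher and 0 lower, the median log2 difference being 1.2, or 5 higher at the same total FPKM. Limma could test 10 of them, of which 9 rose and 1 fell. These genes respond quickly to growth factors and stress. Atf3 was at 16.6 and 17.7 in the E13.5 libraries and 90.7 and 93.7 in the E15.5 libraries (log2 difference 2.36, SE 0.0503, limma adjusted p = 0.000111). Fosb rose from 1.55 ± 0.144 to 9.15 ± 0.475 and Nr4a1 from 7.35 ± 0.387 to 21.99 ± 0.0427. Fos was at 170.2 and 642, Junb at 87.6 ± 1.63 and 277 and Ier2 at 439 and 1192. Egr1 was at 203 and 338 and was not called. E18.5 levels of Fos and Junb were 740.0 and 474.

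The rule of size, which called 4.11% of all measured genes higher and 1.85% lower, was also applied to proliferation genes. Of 39 DNA replication genes 1 was higher and 0 lower, the median being -0.15, and of 41 mitosis genes 1 was higher and 1 lower, their median being -0.01. At the same total FPKM 10 replication genes and 5 mitosis genes were lower and 0 higher, with medians of -0.72 and -0.60. Under that scaling 1429 of all 12699 measured genes were lower, with a median of -0.49. Limma called 3 that rose and 14 that fell of 32 replication genes, and 7 and 10 of 30 mitosis genes. Over all tested genes 29.9% rose and 28.7% fell. Mki67, which encodes the Ki-67 antigen, rose from 8.50 ± 0.0721 to 21.2 ± 0.132, and the mitotic kinesin gene Kif20a was at 22.5 and 9.35. The replication clamp gene Pcna was at 184 and 197. Of the G1 genes 3 were lower, or 8 at the same total FPKM. Among them Mycn, a growth-promoting transcription factor, fell from 13.04 ± 1.21 to 2.53 ± 0.585, Mycl from 6.91 ± 0.161 to 2.73 ± 0.00987 and the cyclin gene Ccnd1 from 33.0 ± 0.0714 to 15.46 ± 0.165.

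Cytosolic ribosomal protein genes were higher in part: 17 of 81 measured members were higher and 0 lower, the median log2 difference being 0.86, in a range from -0.04 to 1.88. At the same total FPKM 1 member was higher in place of 17. Limma could test 40 of them, of which 37 rose and 0 fell. Rplp0 was at 1166 and 2114 and Rpl41 rose from 96.0 ± 12.7 to 267 ± 15.01, and many of these genes have processed copies, with 33.1% of Rplp0 windows shared. Nuclear genes of oxidative phosphorylation had a median of 0.60, with 3 of 75 higher, or 0.01 with 0 higher and 1 lower at the same total FPKM, and limma could test 49 of them, of which 44 rose and 1 fell. Nucleolar genes of ribosome assembly were level, with 0 of 28 called and a median of -0.01. Short transcripts in general were higher at E15.5. Protein-coding genes with up to 1 kb of summed exon had a median log2 difference of 0.52 (320 genes), those from 1 to 1.5 kb 0.27, and those from 3 to 4 kb -0.12. Without the ribosomal, oxidative phosphorylation and enzyme genes the shortest class had a median of 0.44. Relative to the other genes of their own length class, the median was 0.75 for ribosomal proteins, 0.46 for oxidative phosphorylation, 0.88 for endoplasmic reticulum folding and 1.17 for immediate early genes. The part of transcript length in these differences beyond this comparison was not tested.

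**Figure D5:**
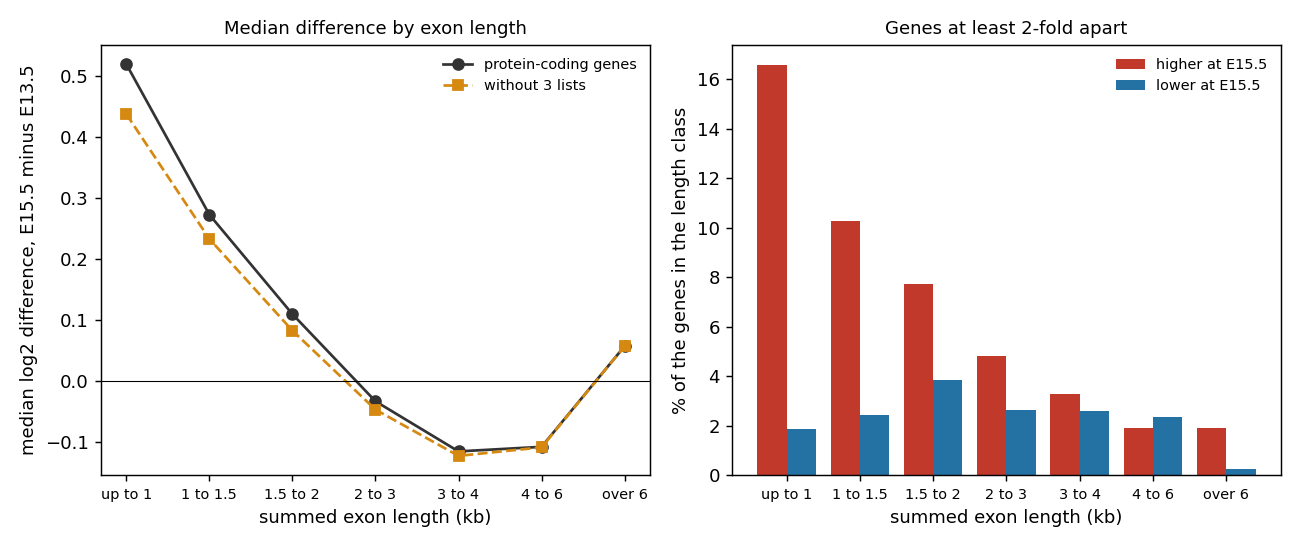
Protein-coding genes by summed exon length in kb (x axis). The left panel gives the median log2 difference (E15.5 minus E13.5) of each class for all genes and without ribosomal protein, oxidative phosphorylation and digestive enzyme genes, falling from 0.52 in the shortest class to -0.12 at 3 to 4 kb. The right panel gives the percentage of each class called higher or lower, with 16.6% of the shortest class called higher.

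Other genes with large differences belonged to no single group. The imprinted non-coding RNA H19 was at 247 and 1264, and at 37.1 at E18.5, while 21 of 23 measured imprinted genes were not called, although 7 were lower at the same total FPKM. The corticosteroid-binding globulin gene Serpina6 was at 1397 and 3416, and 41.2 at E18.5, whereas its neighbours of the alpha-1-antitrypsin family were lower, with Serpina1e at 138 and 17.7 ± 0.904 and Serpina1d falling from 25.7 ± 1.31 to 3.12 ± 0.876. These share 34.6% and 50.9% of windows with other genes and are uncertain. Among retinoid genes the dehydrogenase gene Aldh1a1 was at 1.17 and 10.2 and the receptor gene Rxrg fell from 14.0 ± 1.26 to 2.90 ± 0.347. The laminin receptor gene Itga6 rose from 9.94 ± 0.301 to 35.7 ± 0.298 and the laminin gene Lama5 from 3.17 ± 0.270 to 8.15 ± 0.0320, and the claudin gene Cldn10 was at 112 and 347. The actin-bundling gene Fscn1 fell from 24.0 ± 1.23 to 2.48 ± 0.0127, and Nepn, which encodes the secreted protein nephrocan, from 22.9 ± 1.19 to 3.25 ± 0.450. Sumo2 was at 175 and 29.2 ± 32.8, and its E15.5 libraries disagreed by more than their mean.

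A few calls lay in markers of other cells. The embryonic globin genes Hbb-y and Hba-x fell from 129 ± 12.7 to 6.95 ± 0.432 and from 15.8 ± 0.522 to 2.24 ± 0.541, while the adult globin gene Hbb-bs rose from 33.0 ± 0.237 to 103 ± 4.56, with 53.2% of its windows shared. Their E11.5 levels were 5372, 1749.9 and 101. The matrix gene Mfap4 of mesenchyme fell from 58.3 ± 0.992 to 8.11 ± 0.979, whereas the collagen gene Col3a1 rose from 0.781 ± 0.151 to 5.04 ± 0.0511. The complement gene C1qa of macrophages rose from 13.7 ± 1.38 to 179.9 ± 1.34, while its partners C1qb and C1qc were at 1.29 ± 0.149 and 1.19 ± 0.452 and at 0.748 and 0.967.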

How the data were processed

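RNA sequencing of 2 samples was analysed, E13.5 and E15.5, grouped by the stage in the labels, with E11.5 and E18.5 used for context. The submitters' processing notes name HISAT2 2.0.5 and the mm10 build, with no roles given. The authors deposited an average FPKM for each Ensembl gene, per the file headers. The sources used here do not give the counting tool, the annotation, the treatment of reads that map to several places or the number of libraries. GENCODE M21 gave symbols, coordinates and exon lengths, with a symbol for 54495 of 54532 IDs.

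Values were divided by a median-of-ratios factor over genes at 1 FPKM or more at both stages (0.994 and 1.01), and compared on the log2(scaled FPKM + 1) scale. FPKM times exon length gave sums of whole reads of 2 libraries, each read worth a fixed amount in each library. Of the genes attempted 95.2% and 95.1% were resolved at E13.5 and E15.5, and the libraries of a stage differed by 1.38 and 1.27 times counting error. The FPKM denominators of the E15.5 libraries were 1.25e+07 and 1.09e+07, below the estimated reads, so they are not plain read totals. Library numbers are arbitrary. For the 11279 genes resolved in all 4 libraries, limma 3.58.1 (R 4.3.3) with a mean-variance trend compared the log2 values. Splitting, rule and limma fit were tested on simulated data, which hold no variation between embryos.

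The members and the 43 gene lists were chosen with earlier results of these data known. Named were the 12 protein-coding genes with the widest gap in each direction at 10 FPKM or more, the 8 most abundant genes, the markers, and from each list up to 6 members with the widest gap, 4 with the highest level, and those at 20 FPKM or more at one stage and under 1 at the other. Not every gene so taken is described, and some are not reported here. Outside that rule, and after their values were seen, were named the uncalled enzymes, Cel, Cela1 and Nr5a2, single uncalled or mid-ranked members of other lists, genes with a promoter shown, the genes nearest the 2-fold line, C1qc, Xist and the Y-linked and rRNA-related genes. Promoters matched 20547 genes. Alternatives were other pseudocounts, minimum levels, folds, scalings and gene types, and leaving out each recovered library.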

Additional observations from a re-analysis of the deposited data

How the results depend on the processing

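The numbers of genes higher and lower, 522 and 235, moved most with the scaling, at 196 and 1429 with both stages set to the same total FPKM and 338 and 471 with the same total after taking out the acinar digestive enzymes. A pseudocount of 5 gave 331 and 105, a minimum of 1 FPKM at the higher stage 745 and 368, a fold of 1.5 gave 1264 and 847, and a fold of 3 gave 203 and 53. A pseudocount of 0.1, a minimum of 10 FPKM, no scaling, the upper quartile, a factor from genes at 10 FPKM or more and protein-coding genes only kept both counts within 1.5 times. Leaving out each recovered library in turn gave 527 to 588 higher and 239 to 262 lower. By limma over the 4 recovered libraries, 3370 genes rose and 3237 fell, at any fold.

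The share of all FPKM from acinar digestive enzymes at E15.5 was 25.4% with the total over protein-coding genes and 24.3% without mitochondrially encoded genes. With both stages at the same total FPKM the endocrine progenitor genes had 14 members lower, endoplasmic reticulum folding 7 higher, endoplasmic reticulum translocation 3, cytosolic ribosomal proteins 1 and immediate early genes 5. With the same total after taking out the enzymes, translocation had 5 and ribosomal proteins 4. The shift of all genes under these scalings is -0.49 and -0.19. Single genes were recomputed with no scaling, both same-total scalings and a pseudocount of 0.1. None of the called genes named changed direction. For genes at least 2-fold apart that was fixed in advance, because the shifts are smaller, so it does not measure how far the calls hold. A difference counted as moved when it changed by more than the combined SD between recovered libraries. For genes not resolved in all 4 libraries a limit from counting error was used. By this 272 moved at the same total FPKM with 10 that did not, 247 at the same total without the enzymes, 80 with a pseudocount of 0.1 and 25 with no scaling.

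No paired analysis was possible because each stage has 1 deposited sample and the recovered libraries carry no label that pairs them. Depth limits the genes with the fewest reads. Most enzymes and the insulin genes could not be resolved into libraries at one stage or both and had no test. For 692 and 520 measured genes at E13.5 and E15.5 there were too many reads for a single pair to be told. For 584 and 609 no pair of whole reads gave the mean.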
